A study of Homo sapiens and Mus musculus with 12 samples.

Results

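The 573 intergenic SPI1 peaks of THP1 cells are described here, out of 1846 SPI1 peaks called in 1 ChIP-seq library. A peak was counted as intergenic when its summit, the base with the highest pileup, lay over 1000 bp from every protein-coding transcript start and outside the body of every gene of any type (GENCODE v44, GRCh38). The other peaks of the list were intronic (923), exonic (103) or within 1000 bp of such a start (247, called promoter peaks here). THP1 is a human monocytic leukemia cell line. The cells for the SPI1 library and for a GFI1 library carried no edit or treatment that the labels name. K562, a human leukemia line with erythroid features, expressed Cas9 and received a non-targeting guide (sg-NT) or a guide against LSD1 (sg-LSD1). The peak lists hold no expression values by which a cell line could be checked against its markers. The K562 libraries, LSD1 and GFI1 in sg-NT cells and GFI1 in sg-LSD1 cells, were used only for overlaps. There was 1 library for each condition and therefore no replicate error, and the intervals, at 95%, cover counting error only.

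SPI1, also called PU.1, is an ETS family transcription factor that is needed to form monocytes, macrophages and B cells. ETS proteins read a GGAA core in DNA, and SPI1 favours a run of adenines and a guanine before it. In myeloid cells many SPI1 sites lie far from promoters, where the factor can open chromatin and mark enhancers. GFI1 is a zinc finger repressor that recruits the demethylase LSD1 and can act against SPI1 at shared sites.

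The strongest intergenic peaks are shown first as DNA, because most of them hold the SPI1 core or a part of it, in different arrangements. In each sequence, read from GRCh38, capitals mark GGAAGT and GAGGAA on either strand, and both together spell the core GAGGAAGT. The gene named is that of the nearest protein-coding transcript start. The 4 intergenic peaks with the largest −log10 p all lay on tandem arrays, in which a short unit repeats. The stretches printed for these 4 hold parts of the core and not the full core.
Near AKR1E2, chr10:4333589-4333728, minus strand: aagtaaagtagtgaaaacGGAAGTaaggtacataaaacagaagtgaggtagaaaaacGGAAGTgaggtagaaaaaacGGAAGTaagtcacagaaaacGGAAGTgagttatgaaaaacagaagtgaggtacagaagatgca
Near SPDYE21, chr7:67918296-67918435, plus strand: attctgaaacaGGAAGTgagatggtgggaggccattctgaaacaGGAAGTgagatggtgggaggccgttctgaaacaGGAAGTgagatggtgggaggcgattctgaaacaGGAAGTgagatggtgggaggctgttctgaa
Near FOXL3, chr7:263589-263728, plus strand: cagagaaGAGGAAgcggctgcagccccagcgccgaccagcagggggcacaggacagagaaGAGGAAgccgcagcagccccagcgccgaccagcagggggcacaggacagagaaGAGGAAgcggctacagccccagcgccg
Near CFAP46, chr10:133013554-133013693, plus strand: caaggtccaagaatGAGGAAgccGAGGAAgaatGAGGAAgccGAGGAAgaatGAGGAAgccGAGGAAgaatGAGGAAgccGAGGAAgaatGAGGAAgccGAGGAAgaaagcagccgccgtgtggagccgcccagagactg

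The next 6 intergenic peaks by −log10 p had no tandem repeat at the summit. Their 60 bp around the summit are shown because they cover a full core, a part of the core, and none of either word.
Near RIMS3, chr1:40600125-40600184, plus strand: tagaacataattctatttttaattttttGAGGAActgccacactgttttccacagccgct
Near TFAP2C, chr20:56722305-56722364, plus strand: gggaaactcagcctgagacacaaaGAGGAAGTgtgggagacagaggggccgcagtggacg
Near SMAP2, chr1:40423389-40423448, minus strand: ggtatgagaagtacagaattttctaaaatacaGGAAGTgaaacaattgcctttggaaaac
Near PCED1B, chr12:47312938-47312997, plus strand: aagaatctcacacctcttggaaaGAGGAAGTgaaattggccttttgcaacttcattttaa
Near LRFN2, chr6:40719751-40719810, plus strand: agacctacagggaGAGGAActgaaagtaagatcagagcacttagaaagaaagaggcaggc
Near TRIT1, chr1:39890482-39890541, plus strand: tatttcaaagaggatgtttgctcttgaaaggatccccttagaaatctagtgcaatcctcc

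Intergenic peaks were as strong as the rest of the list. They made up 31% of the SPI1 peaks (573 of 1846, interval 29 to 33.2), while the same rule calls 39.1% of the known bases of GRCh38 intergenic. Their median fold, the pileup over the local background, was 8.55 (interval of the median 8.5 to 9.15), against 8.62 over all SPI1 peaks, 8.76 in introns and 8.32 at promoters. The median −log10 p was 14.8 both for intergenic peaks and for the whole list. At the summit a median of 14 fragments lay over an intergenic peak and 13 over all peaks, with a range of 5 to 132. The intergenic peaks had a median width of 324 bp. Of the 10 strongest SPI1 peaks, 4 were intergenic, and of the 104 peaks ranked in the first 100 with ties, 39 were.

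The DNA at intergenic summits differed from that at promoters in base composition. The 200 bp at the summit held a median of 45.5% G and C in intergenic peaks and 57.5% in promoter peaks. CpG dinucleotides had a median of 1 against 7. Intronic summits, with medians of 46% and 2, were close to the intergenic ones. GGGCGG, the GC box bound by Sp1 family factors, was in 0.873% of the 50 bp windows at intergenic summits (interval 0.373 to 2.03), next to 0.785% in windows of the same length 2000 bp away. At promoter summits it was in 8.10% (interval 5.30 to 12.2) and at intronic summits in 1.41% (interval 0.825 to 2.39). These intergenic and promoter intervals did not overlap.

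The core GAGGAAGT, searched on both strands, was in the 50 bp at 147 of 573 intergenic summits, or 25.7% (interval 22.2 to 29.4), against 26.4% of all SPI1 summits. In 1146 windows of the same length 2000 bp up and downstream of the intergenic summits it was found in 2, or 0.175% (interval 0.0479 to 0.634). The summit share was 27.5% in introns (interval 24.7 to 30.5) and 22.7% at promoters (interval 17.9 to 28.3), so the intervals of the classes overlapped. Both 6-base parts of the core, which overlap it, were more frequent. GGAAGT was in 51.8% of intergenic summit windows and in 3.32% of the flanks. GAGGAA was in 43.1% and in 4.28%. Of the 573 intergenic summits, 525 (91.6%, interval 89.1 to 93.6) had GGAAGT or GAGGAA in the 200 bp centred on the summit, against 24.5% of the flanking windows of that length. The other 48 had a median fold of 7.0 (interval 5.77 to 7.85), below that of all intergenic peaks.

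**Figure D1:**
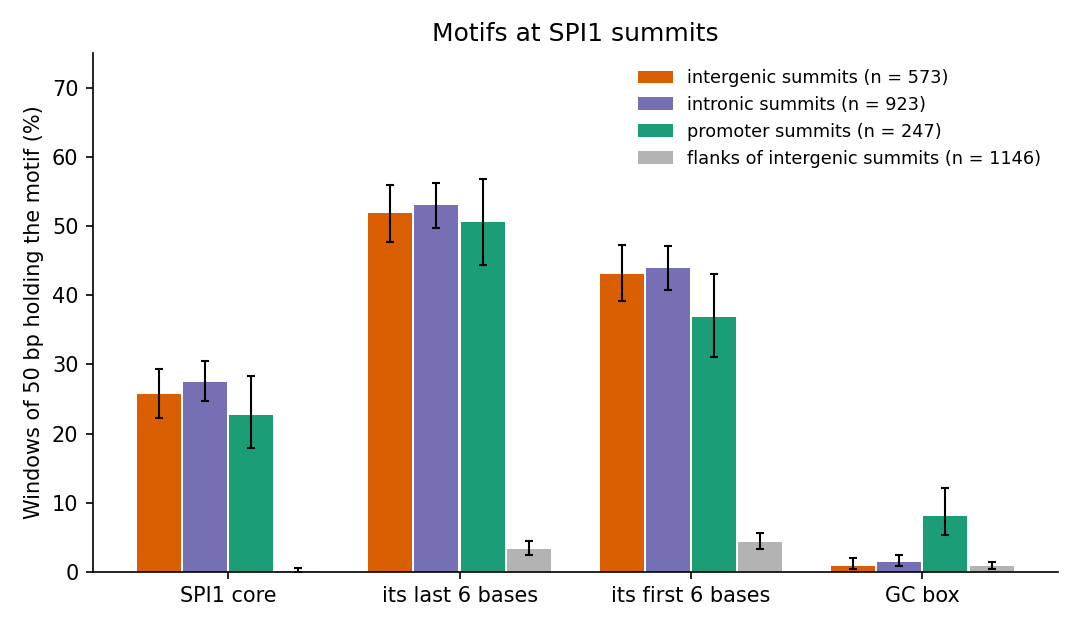
Share of 50 bp windows that hold the SPI1 core, its last 6 bases (GGAAGT), its first 6 bases (GAGGAA) or the GC box (GGGCGG), at intergenic, intronic and promoter summits and in windows 2000 bp from the intergenic summits. Bars are shares of 1 library and error bars are 95% Wilson intervals. The 3 SPI1 words reach similar heights in the 3 classes, and the GC box stands out at promoters, at 8.10%.

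The 2 bases before GGAAGT were uneven among intergenic summits. GAGGAAGT was in 147 summit windows, GGGGAAGT in 55, AGGGAAGT in 29, CAGGAAGT in 26 and AAGGAAGT in 21. In the flanks, which had 2 windows for each summit, the counts were 2, 3, 3, 5 and 7 in the same order. GGGGAAGT, second at the summits, was thus in 9.60% of intergenic summit windows and 0.262% of flanks. The 10 words of 6 letters with the largest ratio of summit to flank windows were led by GGAAGT (15.6 times), GAAGTG (15.2 times) and GAGGAA (10.1 times). Then came AGAGGA (9.46 times), AGGAAG (8.46 times), GGGGAA (8.08 times) and AAGAGG (7.71 times). The last were AAAGGG (6.28 times), AGGGGA (5.36 times) and AAGTGA (5.35 times).

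Bases beside the core were uneven too. Among 220 intergenic members with a core in 200 bp whose neighbouring bases could be read, the 3 bases just before GAGGAAGT were A in 76.4%, 77.3% and 61.8%, from the farthest to the nearest. At the nearest of these places 30.9% had T and 0% had C. The base after the core was G in 69.5%, and the next was A in 49.1%. The sites near TFAP2C and PCED1B above both have 3 A before the core and G after it.

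Cores lay close to the summit. A core was found in 200 bp at 222 intergenic members, which held 236 cores in all. The middle of the nearest core was a median of 12 bp from the summit, within 10 bp in 102 members and within 25 bp in 157. It lay on the plus strand in 127 members and on the minus strand in 95. Only 12 of the 222 had 2 or more cores in 200 bp.

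The core was more frequent in stronger intergenic peaks. Members with the core had a median fold of 9.97 (interval 9.26 to 10.7, n = 147) and those without it 8.5 (interval 8.08 to 8.59, n = 426), so the intervals did not overlap. By quartiles of −log10 p, from the strongest to the weakest, the core was in 38.5% (interval 30.9 to 46.6), 28%, 21.7% and 14.6% (interval 9.74 to 21.3). The strongest and the weakest quartile did not overlap, while neighbouring quartiles did. Peaks with equal −log10 p at the edge of a quartile were placed in list order.

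Cores of other factors were searched in the same way at the 573 intergenic summits. GGAANNGAA, the composite element at which SPI1 binds with an IRF protein, was in 13.6% of the 50 bp windows (interval 11.0 to 16.7) and 1.75% of the flanks (interval 1.13 to 2.68). It shares its GGAA with the SPI1 words. GAAANNGAA, which IRF proteins bind on their own, was in 4.19% (interval 2.83 to 6.16) against 2.01% (interval 1.34 to 2.99), so these intervals overlapped. In 200 bp its shares were 12.9% (interval 10.4 to 15.9) and 6.28% (interval 5.02 to 7.84), which did not overlap. TTGCNNAA of C/EBP factors (2.62% against 2.01%), AGATAA of GATA factors (2.79% against 3.23%) and TGTGGTT of RUNX factors (0.698% in both) had overlapping intervals in 50 bp. So did TGANTCA of AP-1 (0.873% against 1.66%) and AATCAC of GFI1 (1.57% against 2.44%).

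Tandem arrays carried the intergenic peaks with the highest fold. Near AKR1E2 (chr10:4332847-4334631) the fold was 94.7, the −log10 p was 279 and 132 fragments lay over the summit. That peak was 1785 bp wide and its DNA held GGAAGT at 31 places and GAGGAAGT at 0. Near SPDYE21 (chr7:67918084-67918603) the fold was 72.6 with 101 fragments, and a unit of 33 bp repeated with 91.6% of bases equal to the base 1 unit further on. The arrays near FOXL3 and CFAP46 both had a fold of 39.2 with 54 fragments. The FOXL3 array had a unit of 53 bp with 95.9% equal bases, and its 1262 bp peak held GAGGAA at 23 places, while the 509 bp peak near CFAP46 held it at 11. AKR1E2 is an aldo-keto reductase, and the summit was 453 kb from its start.

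A 200 bp window was called periodic when at least 60% of its bases equalled the base a fixed 2 to 100 bp further on, a limit chosen after these values were seen. By it 18 intergenic summits were periodic, or 3.14% (interval 2.00 to 4.91), against 2.17% of all SPI1 summits and 0.785% of the flanking windows of the intergenic peaks (interval 0.414 to 1.49). In introns 18 of 923 summits were periodic (1.95%, interval 1.24 to 3.06) and in exons 3 of 103 (2.91%, interval 0.995 to 8.22). At promoters 1 of 247 was (0.405%, interval 0.0715 to 2.26). The intervals of these 3 classes all overlapped the intergenic one. Of the 18 intergenic periodic summits, 16 had GGAAGT or GAGGAA at 3 or more places in 200 bp. Their folds ran from 4.67 to 94.7 with a median of 9.53, beside a median of 8.55 and a highest fold of 29.2 in the other intergenic peaks. The array near TFRC, the transferrin receptor gene, had GGAAGT at 41 places in 1361 bp and a fold of 15.9. How reads that match several units were placed in these arrays is not given in the sources used here.

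Intergenic peaks with alike sequence were found on several chromosomes. Members were put in 1 group where their 200 bp aligned over at least 100 bp with at least 80% identity. This joined 69 members into 14 groups, and the other classes were not grouped in this way. The first group had 18 members on 11 chromosomes, the next 13 on 8 and the next 7 on 5. To show what they share, members of the groups of 13 and of 7 on 5 chromosomes are lined up at the GGAAGT nearest to the summit, 4 of each in order of −log10 p, without periodic windows and without one chromosome that is not printed.
Near CACNA2D1, chr7:82615651-82615700, plus strand: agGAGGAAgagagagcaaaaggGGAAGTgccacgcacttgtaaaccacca
Near SHH, chr7:156034541-156034590, plus strand: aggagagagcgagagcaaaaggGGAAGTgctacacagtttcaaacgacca
Near DAOA, chr13:105272821-105272870, plus strand: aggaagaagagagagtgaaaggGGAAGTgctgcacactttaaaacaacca
Near FAM3C, chr7:121608360-121608409, minus strand: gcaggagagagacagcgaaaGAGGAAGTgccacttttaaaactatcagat
Near TAL2, chr9:105673084-105673133, plus strand: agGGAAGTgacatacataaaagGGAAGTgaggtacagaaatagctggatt
Near HS3ST3B1, chr17:14605068-14605117, minus strand: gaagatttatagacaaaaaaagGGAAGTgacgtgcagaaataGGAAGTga
Near NANS, chr9:98045536-98045585, minus strand: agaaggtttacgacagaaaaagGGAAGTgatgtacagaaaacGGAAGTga
Near C1orf100, chr1:244325155-244325204, plus strand: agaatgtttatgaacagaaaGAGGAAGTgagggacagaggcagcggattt

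The group of 18 had the full core in 12 members and a median fold of 7.83. In the group of 13 the first 3 printed members read GGGGAAGT, and 2 of the 13 members had GAGGAAGT. Its median fold was 10.2. The 24-letter word that occurs most often in a member's 50 bp window was at a median of 10 places of GRCh38. In the group of 18 that word was at a median of 8406 places. The printed members of the group of 7 have G and A after GGAAGT, and 3 of the 4 have GGAAGT at 2 places. Its median fold was 11.9. Another group of 7 members on 7 chromosomes had words at a median of 16975 places and a median fold of 6.54.

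Sequence that occurs many times in the genome was less frequent at intergenic summits than beside them. A 24-letter word found at 10 or more places was in 13.1% of the 50 bp windows at the summits (interval 10.6 to 16.1) and in 24.9% of the flanks (interval 22.5 to 27.5). Over all SPI1 peaks such a word was in 9.37% of summit windows and 22.7% of flanks, and in introns in 9.64% and 21.8%. At promoter summits it was in 1.62% (interval 0.632 to 4.09). Among intergenic members the share was 7.08% (interval 3.63 to 13.4) within 10 kb of a start and 20% (interval 14.4 to 27.1) beyond 100 kb. Reads from repeated words are hard to place, and peaks in regions of the ENCODE blacklist had been removed.

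In a stretch of chromosome 1, 8 intergenic peaks had many fragments over a high local background. Between 39 and 42 Mb, a window chosen after the values were seen, these members had a median of 52.5 fragments over a local background of 5.42 fragments. Elsewhere the intergenic members had medians of 13 fragments and a background of 0.530. The background in the stretch was 13.4 times the lowest in the library. Fold, which divides by the background, had medians of 8.58 in the stretch and 8.55 elsewhere. The peaks of the THP1 GFI1 library in that stretch also had a raised background, 10.1 times the lowest of that library, while those of K562 LSD1 had 1.32 times. The part of the raised background in the −log10 p of these members was not tested. The peaks near RIMS3, SMAP2 and TRIT1, which rank among the 10 strongest intergenic ones, lie there. RIMS3 had 92 fragments and a fold of 15.2, SMAP2 83 and 12.3, and TRIT1 79 and 10.9. GAGGAAGT was at 1 of the 8 summits, that near MYCL, beside 25.8% of the intergenic summits elsewhere. GAGGAA was at 4 of the 8, beside 43.1% of all intergenic summits. Over all classes 35 SPI1 peaks lay in the stretch, with a median background 11.6 times the lowest.

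**Figure D2:**
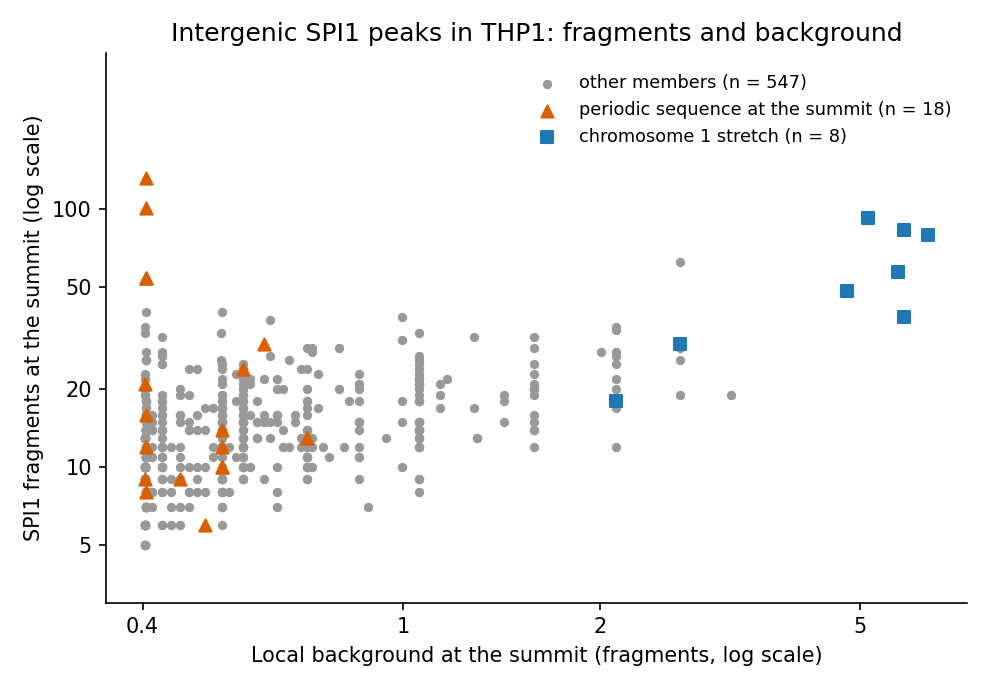
Fragments at the summit against the local background, both solved from the deposited fold and −log10 p and drawn on log axes, for the 573 intergenic peaks. Triangles are the 18 periodic summits, of which the 4 with the most fragments stand apart at the lowest background (those near FOXL3 and CFAP46 at the same point), and squares are the 8 members of the chromosome 1 stretch, which lie at backgrounds of 2.12 to 6.36.

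The other 3 of the 10 strongest intergenic peaks lay outside the arrays and that stretch. The peak near TFAP2C (chr20:56722061-56722532), 92.1 kb downstream of its start, had 40 fragments and a fold of 29.2. TFAP2C encodes an AP-2 transcription factor. The peak near PCED1B (chr12:47312764-47313176) had 62 fragments over a background of 2.65 and a fold of 17.3. The peak near LRFN2 (chr6:40719538-40720037) had 40 fragments and a fold of 26.8, with GAGGAA but no full core in 50 bp.

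Intergenic summits lay a median of 36201 bp from the nearest protein-coding transcript start (interval 30671 to 44233). Of the 573, 113 (19.7%) were within 10 kb, 337 (58.8%) within 50 kb and 150 (26.2%) beyond 100 kb. The nearest start was downstream of the summit, so that the peak lay upstream of the gene, in 382 members (66.7%, interval 62.7 to 70.4). The other side of a start is partly gene body, which the rule leaves out. The nearest gene body was protein-coding for 219 members and that of a lncRNA for 179, and 15 summits were within 1000 bp of the start of a lncRNA gene. Fold changed little with distance, with medians of 9.06 (interval 8.41 to 9.97) within 10 kb and 8.55 (interval 7.83 to 9.23) beyond 100 kb. The core was in 26.5% (interval 19.3 to 35.4) and 22% (interval 16.1 to 29.3) of these members.

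The 5 members just over the distance limit lay 1021 to 1072 bp from a start, with folds of 7.40 to 19.2. The 5 peaks outside genes that came closest to the limit from inside lay at 767 to 988 bp, with folds of 4.86 to 11.4. The 5 members nearest to a gene edge were 7 to 22 bp from it (folds 7.83 to 11.9), and the 5 peaks in genes nearest to an edge 16 to 64 bp inside (folds 6.80 to 16.9).

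Chromosomes 20 and 1 had the most intergenic peaks for their length, with 1.52 and 1.10 members per Mb of intergenic sequence (42 and 90 members). Chromosome 17 followed at 0.880, and chromosome X had 0.0359 (3 members). The whole SPI1 list was also uneven, with 99 peaks on chromosome 20, 251 on chromosome 1 and 7 on X. These chromosomes have 63.9, 230 and 155 Mb of known bases. Of the 90 members on chromosome 1, 8 were in the stretch described above. The member nearest to the SPI1 gene itself lay 2.29 Mb from its start (chr11:45083135-45083535), with a fold of 9.97, while the nearest SPI1 peak of any class was intronic and 14715 bp away.

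Near genes of monocytes and macrophages, intergenic peaks were grouped by what the nearest gene does. Of 70 genes for receptors and surface proteins of these cells, 69 had a transcript start under the listed symbol, and 11 were the nearest gene of 14 members. These were 2.44% of the intergenic peaks (interval 1.46 to 4.06), beside 1.79% of all SPI1 peaks and 0.313% of intergenic bases that lie nearest to such a gene. A nearest gene is a position and not a measured target. The sites near 4 of them, which hold GGAAGT or GAGGAA in different numbers, read as follows.
Near MARCO, chr2:118940582-118940641, minus strand: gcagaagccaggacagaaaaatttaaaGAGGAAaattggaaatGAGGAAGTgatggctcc
Near ITGAM, chr16:31244098-31244157, plus strand: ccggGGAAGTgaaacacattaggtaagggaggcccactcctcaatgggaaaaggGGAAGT
Near SIGLEC1, chr20:3714239-3714298, minus strand: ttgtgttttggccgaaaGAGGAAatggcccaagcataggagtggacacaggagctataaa
Near ITGAX, chr16:31352575-31352634, minus strand: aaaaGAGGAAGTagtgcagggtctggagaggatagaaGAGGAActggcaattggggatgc

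Those near MARCO and ITGAX hold the full core, for ITGAX at the edge of the 60 bp and outside the 50 bp counted here. MARCO, a scavenger receptor of macrophages, had an intergenic peak 1.58 kb upstream of its start with 26 fragments and a fold of 17.7 (chr2:118940335-118940771). ITGAM, the integrin subunit CD11b, had one 15.8 kb upstream with 19 fragments and a fold of 13.6 (chr16:31243957-31244260). On the same chromosome ITGAX, the integrin subunit CD11c, had one 2.57 kb upstream with 22 fragments and a fold of 11.2. SIGLEC1, a lectin that binds sialic acid, had one 1.67 kb upstream with 20 fragments and a fold of 12.3. Over the 14 members the median fold was 10.1, beside 8.55 over all intergenic peaks. The full core was in 50 bp at 3 of the 14, beside 25.7% of all intergenic summits, and 6 overlapped a THP1 GFI1 peak, beside 12.6%. CD14, a coreceptor for lipopolysaccharide, was chosen after its values were seen. Its peak 21.0 kb downstream had an SPI1 fold of 10.6 and overlapped a GFI1 peak with a fold of 21.4.

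Genes of phagocyte signalling and the oxidase were nearest to 4 members, 0.698% of the intergenic peaks (interval 0.272 to 1.78), beside 1.63% of all SPI1 peaks and 0.125% of intergenic bases. CORO1A, which encodes an actin-binding coronin of leukocytes, had a peak 16.5 kb upstream with 28 fragments and a fold of 20.7. SYK, a kinase downstream of Fc receptors, had one 5.62 kb upstream with a fold of 9.97. DUSP6, a phosphatase of MAP kinases, had one 4.65 kb downstream with a fold of 6.42. Genes of granule, lysosome and secreted proteins were nearest to 3 members, 0.524% (interval 0.178 to 1.53), beside 0.704% of all SPI1 peaks and 0.0933% of intergenic bases. SRGN, the granule proteoglycan serglycin, had a peak 38.3 kb upstream with a fold of 12.6, and LYZ, lysozyme, one 10.2 kb upstream with a fold of 6.94. For CTSB, cathepsin B, the fold was 4.85. Of these 7 members, 4 had the full core in 50 bp, beside 25.7% of all intergenic summits, and 3 of them are shown here.
Near CORO1A, chr16:30166317-30166376, plus strand: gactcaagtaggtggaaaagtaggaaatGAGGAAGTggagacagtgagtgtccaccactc
Near SRGN, chr10:69049751-69049810, minus strand: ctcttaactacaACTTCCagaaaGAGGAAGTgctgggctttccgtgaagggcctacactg
Near LYZ, chr12:69338168-69338227, plus strand: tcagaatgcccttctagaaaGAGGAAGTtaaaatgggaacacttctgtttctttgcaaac

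Of 62 hematopoietic transcription factor genes, 6 were nearest to 9 members, 1.57% of the intergenic peaks (interval 0.828 to 2.96), beside 1.52% of all SPI1 peaks and 0.741% of intergenic bases. CEBPA, which drives the granulocyte and monocyte fate, had peaks 33.8 and 23.99 kb downstream with folds of 8.5 and 7.70. CEBPB had one 157 kb downstream with a fold of 9.81, and the MYC peak with the larger −log10 p lay 22.3 kb downstream with a fold of 7.83. The full core was in 50 bp at 1 of the 9 summits, that of CEBPB, beside 25.7% of all intergenic summits. The CEBPB site is shown beside the stronger CEBPA site, whose core lies at the edge of the printed 60 bp.
Near CEBPB, chr20:50348250-50348309, minus strand: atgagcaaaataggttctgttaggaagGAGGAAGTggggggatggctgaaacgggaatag
Near CEBPA, chr19:33268745-33268804, minus strand: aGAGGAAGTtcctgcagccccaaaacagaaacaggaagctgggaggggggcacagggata

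Cytokine and inflammatory genes were nearest to 2 members, 0.349% of the intergenic peaks (interval 0.0958 to 1.26), beside 0.379% of all SPI1 peaks and 0.183% of intergenic bases. They were TNFAIP3, which restrains NF-kB signalling (47.2 kb downstream, fold 8.08), and CSF1, the macrophage growth factor (3.94 kb upstream, fold 7.59). Of all SPI1 peaks 0.163%, and of intergenic bases 0.289%, lie nearest to 1 of 37 lymphoid genes. None of these 37 genes was nearest to a member, and 0 of 573 allows a share of up to 0.666%. Of 31 erythroid genes only TFRC was, with the array given above, which is 0.175% of the intergenic peaks beside 0.0542% both of all SPI1 peaks and of intergenic bases. These lists were small, and no test was made on them.

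Some intergenic peaks lay in groups. With neighbouring summits at most 50 kb apart, 74 of the 573 members (12.9%) fell into 34 groups, 28 of 2 and 6 of 3. The same share over all SPI1 peaks was not counted, so it is open whether grouping is particular to intergenic peaks. In the chromosome 1 stretch, the peaks near TRIT1, MYCL and MFSD2A formed 1 of the groups of 3. Another was at CEBPA (chr19:33260838-33278738), with folds of 7.70 to 16.02 and a GFI1 peak of fold 11.4, noted after its value was seen, at its strongest member, which is nearest to the start of SLC7A10. The group upstream of CXCR4, the receptor for CXCL12, spanned 17.2 kb, with its nearest summit 119.8 kb from the start (chr2:136238728-136255974), and had folds of 5.84 to 10.0. The group near CDY2B on chromosome Y had folds of 4.27 to 7.83. LYST, a gene of lysosome traffic, was nearest to a further group of 3, with folds of 4.79 to 6.47.

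A THP1 GFI1 peak shared at least 1 bp with 72 of the 573 intergenic peaks, or 12.6% (interval 10.1 to 15.5), against 10.5% of all SPI1 peaks. The share was 9.53% in introns and 8.10% at promoters (interval 5.30 to 12.2), with overlapping intervals. The members with a GFI1 peak had a median SPI1 fold of 9.91 (interval 8.60 to 11.1) and those without 8.55 (interval 8.28 to 8.98), which overlap. The summits of the SPI1 and GFI1 peaks were a median of 59 bp apart, and at most 100 bp apart in 44 of the 72. Fold was higher for SPI1 in 44 members and for GFI1 in the others. The SPI1 core was in 26.4% of the co-bound members (interval 17.6 to 37.6) and in 25.5% of the others (interval 21.9 to 29.5). AATCAC was in 50 bp at 4 of the 72 GFI1 summits (5.56%, interval 2.18 to 13.4) and GGAAGT at 15 (20.8%, interval 13.1 to 31.6). In the flanks of all intergenic SPI1 summits the shares were 2.44% (interval 1.70 to 3.51) and 3.32% (interval 2.43 to 4.52). The intervals of AATCAC overlapped. GAGGAAGT was in 50 bp at 5 of these 72 GFI1 summits (6.94%, interval 3.00 to 15.2). The 72 were picked by their overlap with SPI1 peaks, so their GGAAGT share cannot speak to GFI1 binding. Shares over all GFI1 summits were not counted.

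GFI1 overlap was more frequent in the strongest than in the weakest intergenic peaks. From the strongest to the weakest quartile of the intergenic peaks it was 18.2% (interval 12.7 to 25.3), 11.2%, 14.0% and 6.94% (interval 3.82 to 12.3), with the ends of the order apart. Within 10 kb of a start it was 18.6% (interval 12.5 to 26.7) and beyond 100 kb 8.67% (interval 5.13 to 14.3), and these intervals overlapped. The strongest co-bound members were the AKR1E2 array, with a GFI1 fold of 6.74 and summits 483 bp apart, and RIMS3 with a GFI1 fold of 5.09. TFAP2C followed, also with a GFI1 fold of 6.74 and summits 384 bp apart. At TRIT1 the GFI1 fold was 9.89, with a −log10 p of 61.7 and summits 26 bp apart. At DCSTAMP, a gene for cell fusion in osteoclasts and macrophages, the SPI1 fold was 23.1 and the GFI1 fold 11.5.

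**Figure D3:**
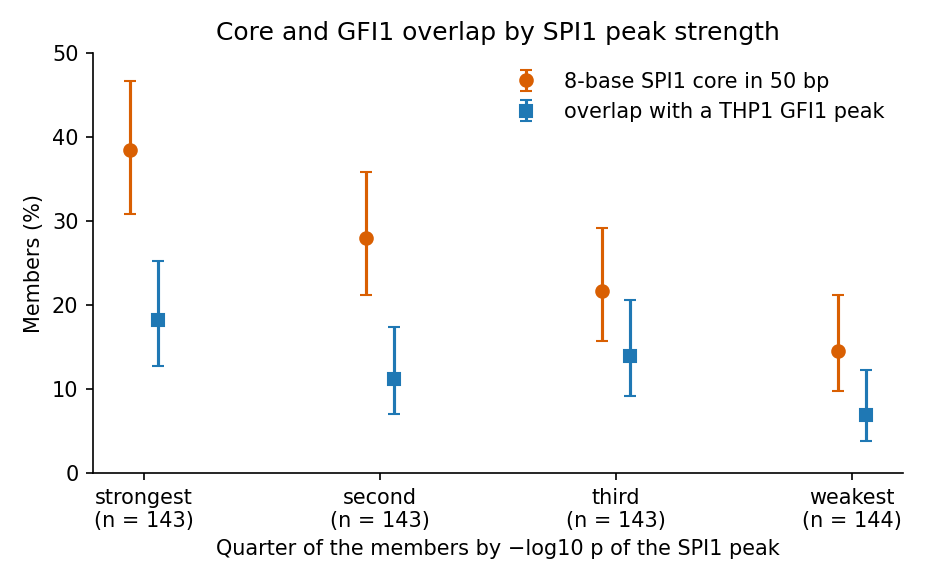
Share of intergenic members with GAGGAAGT in 50 bp (circles) and with a THP1 GFI1 peak (squares), by quartile of −log10 p, with 95% Wilson intervals. Circles fall from 38.5% to 14.6%, and squares from 18.2% to 6.94% with a step up in the third quartile.

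In K562 cells few of these regions had a peak. LSD1 of sg-NT cells had one at 12 of the 573 intergenic SPI1 peaks, or 2.09% (interval 1.20 to 3.62), against 2.76% of all SPI1 peaks and 6.48% at promoters (interval 4.03 to 10.3). The share was 1.05% when 50% of the shorter peak had to be shared or when summits had to lie at most 200 bp apart. It was 1.35% when members had to lie over 5000 bp from a start. The GFI1 lists of sg-NT and sg-LSD1 cells were short, with 498 and 160 peaks, beside 6548 for LSD1 and 3461 for GFI1 in THP1. No intergenic SPI1 peak overlapped a peak of either K562 GFI1 list, and 0 of 573 allows a share of up to 0.666% in each. Over all SPI1 peaks the shares were 0.271% and 0.217%, both below that limit, so the absence does not set intergenic peaks apart. By strength the first was near SH2D1B, an adaptor gene of natural killer cells, with an SPI1 fold of 19.5 and an LSD1 fold of 6.64. At RAB11FIP1 the folds were 19.2 and 12.2, with summits 371 bp apart. At RNF19B they were 17.0 and 6.14, and a THP1 GFI1 peak of fold 10.0 lay there too. Cell line and library differ together in this comparison, so they cannot be told apart.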

How the data were processed

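ChIP-seq peak lists of THP1 (SPI1, GFI1) and of Cas9-expressing K562 cells (LSD1 and GFI1 with sg-NT, GFI1 with sg-LSD1) were used, 1 library each. As the study's methods and the submitters' notes give it, the authors trimmed reads (Trim Galore 0.6.1), mapped them to GRCh38 (Bowtie2 2.5.4), removed duplicates (Picard 3.1.0), called peaks per library (MACS2 2.2.9.1) and took out ENCODE blacklist regions. Whether an input served as the control is not given in the sources used here.

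The deposited columns were the fold (a ratio of summit pileup to local background, each plus 1), the −log10 p and −log10 q of a Poisson model, and a score, which was read but not used. A p-value here compares a summit with its local background and not conditions. Fragments and background were solved from fold and −log10 p, and 100% of the rows gave whole fragments within a relative tolerance of 0.0001. The total reads per library are not known from these lists. Weak sites rest on few fragments, from 5 upward.

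Summits were placed on GENCODE v44 and sequence was read from GRCh38 with Python 3.11.15, numpy 2.4.6, pandas 2.3.3, scipy 1.17.1 and pysam 0.24.0. Scripts were tested on simulated data. Motifs were searched on both strands in 50 bp at the summit and in flanks 2000 bp away, shares carry Wilson intervals, and peaks overlapped from 1 bp on. Alternative limits of peaks, distances, windows and overlaps were tried.

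Sites named were the 10 members with the largest −log10 p, the 5 strongest with a THP1 GFI1 peak and the 3 strongest with a K562 peak, and the member nearest to the SPI1 gene. The 4 strongest of each gene list, the 5 largest groups of neighbours, the 3 largest of alike sequence, and the 10 top words of 6 letters were named too. A tie among the groups of neighbours added 1. The members, lists and limits were chosen with earlier results of these data known. Inputs and murine libraries were not used here. Some sites and sequences that meet these rules are not reported here.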

Additional observations from a re-analysis of the deposited data

How the results depend on the processing

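Each value rests on 1 library and on peaks past the authors' threshold, so sites with fewer fragments are not seen. Of 57 alternative values, 6 lay outside the interval of the reported value. The number of members has no interval, and its alternatives ran from 518 to 808. Limits to −log10 q of at least 2 and to chromosomes 1 to 22, X and Y kept all 573 members, so no value could move there. With −log10 p of at least 8 the median fold was 9.23, among 518 members. With starts set 5000 bp away the median distance was 44876 bp, among 519 members. In 200 bp the core was at 38.7% of the members, and the shorter GAGGAA was in 50 bp at 43.1%. K562 LSD1 shared 1.05% of the members both when 50% of the shorter peak had to overlap and when summits had to lie at most 200 bp apart. Leaving out bodies of protein-coding genes only gave 808 members. Leaving out the 8 members of the chromosome 1 stretch, the 18 periodic ones, or counting every transcript of protein-coding genes gave 565, 555 and 572 members, settings chosen after the data were seen. A pseudocount of 0 gave whole fragments for 0% of the rows and so no value. The share in marked repeats was not run, since the reference used here has no repeat marks. No paired analysis was possible because each condition has 1 library.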
